A study of Homo sapiens with 22 samples.

Results

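Genes of leukotriene and prostaglandin synthesis were followed by RNA sequencing (RNA-seq) in 2 human acute myeloid leukemia (AML) cell lines treated with FP54, and ALOX5 and its partner ALOX5AP were higher in every FP54 library of both lines. The list holds 10 genes, all found by symbol among the 20411 protein-coding genes of each table: PLA2G4A, ALOX5AP, ALOX5, LTA4H, LTC4S, PTGS1, PTGS2, PTGES, PTGES3 and TBXAS1. It was selected on the rise of ALOX5 in MOLM-13 cells, which ranked 6 by log2 fold change among the 9710 genes tested there. MOLM-13 values of the list are therefore given as a description, in which no p-value is printed and calls are counted without being read as support. The NB4 contrast, which that rule did not use, was tested, although members were chosen with earlier results of these data known.

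FP54 is a proteolysis-targeting chimera that links a ligand of FTO, an eraser of the m6A mark on RNA, to a ligand of the E3 ubiquitin ligase VHL. It removes FTO protein, so the FTO transcript is no check of the labels. MOLM-13, a monocytic AML line, and NB4, a promyelocytic AML line, both labelled wild type, received FP54 at 2 μM or the solvent DMSO alone for 48 hours, and each treatment of each line has 3 libraries. Each is a single established line, and nothing in the labels says that the 3 libraries of a group came from separate cultures, so p-values measure the spread between these libraries, which may be technical. These are 12 of the 22 samples, and the 10 others, of m6A-seq and polysome-seq, are not analysed here.

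Eicosanoids are lipid signals made from arachidonic acid, a polyunsaturated fatty acid held in membrane phospholipids, and myeloid cells are a main source of them in inflammation. Cytosolic phospholipase A2, the product of PLA2G4A, frees arachidonic acid, which then enters one of several branches. In the leukotriene branch, the membrane protein FLAP (ALOX5AP) presents it to 5-lipoxygenase (ALOX5), and the resulting leukotriene A4 is turned into leukotriene B4 by LTA4H or joined to glutathione by LTC4S. In the prostanoid branch, the cyclooxygenases PTGS1 and PTGS2 make prostaglandin H2, which PTGES converts to prostaglandin E2 and TBXAS1 to thromboxane A2. PTGES3, also called p23, is listed as a prostaglandin E synthase and is a co-chaperone of HSP90.

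RefSeq promoter windows of assembly GRCh38.p14, running from 250 bases before to 50 after each start, were found for 9 of the 10 genes, with 2 windows for PTGS1, while ALOX5 had no entry in the table used. The 250 bases before the start are shown for ALOX5AP, LTC4S and PTGS1, which were higher in every FP54 library of both lines, and for PTGES3, which was not. Capitals mark GGGCGG, the GC box, and TATAAA, the TATA box, searched on both strands. ALOX5AP lies at chr13:30713235-30713484, plus strand, and LTC4S at chr5:179793736-179793985, plus strand. The first PTGS1 window is at chr9:122370283-122370532, plus strand, and PTGES3 is at chr12:56688285-56688534, minus strand.
ALOX5AP: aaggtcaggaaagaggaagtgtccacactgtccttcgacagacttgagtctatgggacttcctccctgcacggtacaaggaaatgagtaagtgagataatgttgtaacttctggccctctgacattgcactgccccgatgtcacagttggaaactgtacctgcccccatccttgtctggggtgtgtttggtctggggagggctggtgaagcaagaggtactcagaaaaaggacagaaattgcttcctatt
LTC4S: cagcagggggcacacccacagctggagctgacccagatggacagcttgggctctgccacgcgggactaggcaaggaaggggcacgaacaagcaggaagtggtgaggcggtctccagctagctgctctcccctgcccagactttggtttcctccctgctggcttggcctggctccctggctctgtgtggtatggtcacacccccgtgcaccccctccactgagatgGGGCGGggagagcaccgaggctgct
PTGS1: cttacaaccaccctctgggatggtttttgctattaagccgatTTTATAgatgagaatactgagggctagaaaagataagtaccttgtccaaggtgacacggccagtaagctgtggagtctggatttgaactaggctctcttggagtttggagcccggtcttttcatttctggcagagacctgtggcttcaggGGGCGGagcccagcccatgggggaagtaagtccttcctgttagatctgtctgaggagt
PTGES3: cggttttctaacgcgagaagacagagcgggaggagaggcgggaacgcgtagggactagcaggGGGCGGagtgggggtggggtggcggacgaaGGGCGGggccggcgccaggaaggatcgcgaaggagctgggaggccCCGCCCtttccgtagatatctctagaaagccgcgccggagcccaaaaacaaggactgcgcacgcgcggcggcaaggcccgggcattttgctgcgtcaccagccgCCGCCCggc

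A GC box stood in 45.0% and a TATA box in 11.5% of all 35116 windows of 300 bases. PTGES3 held 4 GC boxes, LTC4S held 1 that begins 25 bases before its start, and ALOX5AP held neither motif. The PTGS1 window shown held 1 GC box and, 208 bases before the start, 1 TATA box, and its other window held 1 GC box that begins 202 bases before the start. Of the members not shown, PTGES held 2 GC boxes, TBXAS1 held 2 TATA boxes and PTGS2 held 1 TATA box that begins 32 bases before its start. The windows of LTA4H and PLA2G4A held neither. Members that moved together did not all share these letters, and a window without a match lacks only these letters.

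Levels are given as RPKM, reads per kilobase of transcript scaled to the reads of the library, a per-length measure that the authors deposited. Reads on genes were recovered from RPKM and transcript length. A MOLM-13 library held between 16308923 and 17357939 of them after DMSO and between 5835173 and 19202930 after FP54. An NB4 library held between 20655342 and 22342375 after DMSO and between 10599156 and 13075071 after FP54. Of the 6 myeloid markers, all averaged 1 RPKM or more in both lines, and the platelet genes PF4, PPBP and GP1BB were at 0 in all 12 libraries. Olfactory receptor genes, taken as a measure of stray reads because AML cells are not known to use them, averaged from 0.00381 to 0.00833 RPKM in MOLM-13 cells. In NB4 cells they averaged from 0.00175 to 0.00387 RPKM with DMSO and from 0.0509 to 0.0544 RPKM with FP54. The samples are bulk RNA, in which fewer cells that carry a transcript and less of it per cell cannot be told apart.

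In MOLM-13 cells 7 of the 10 genes were higher in all 3 FP54 libraries than in any DMSO library, namely PLA2G4A, ALOX5AP, ALOX5, LTC4S, PTGS1, PTGS2 and TBXAS1. Among all genes tested, 20.2% showed that pattern and 17.0% the opposite one, in which no member fell. Calls needed an unadjusted p under 0.01 and a log2 fold change of 0.5 or more in size, from a limma fit of log2(RPKM + 0.1) over genes that averaged 1 RPKM or more in the line. By that rule 5 of 9 members were called higher and 0 lower, beside 9.30% and 9.04% of all genes tested. Since ALOX5 in this contrast led to the list, nothing is read from these counts. PTGES was below the expression minimum, and LTC4S passed it only through its FP54 libraries.

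**Figure D1:**
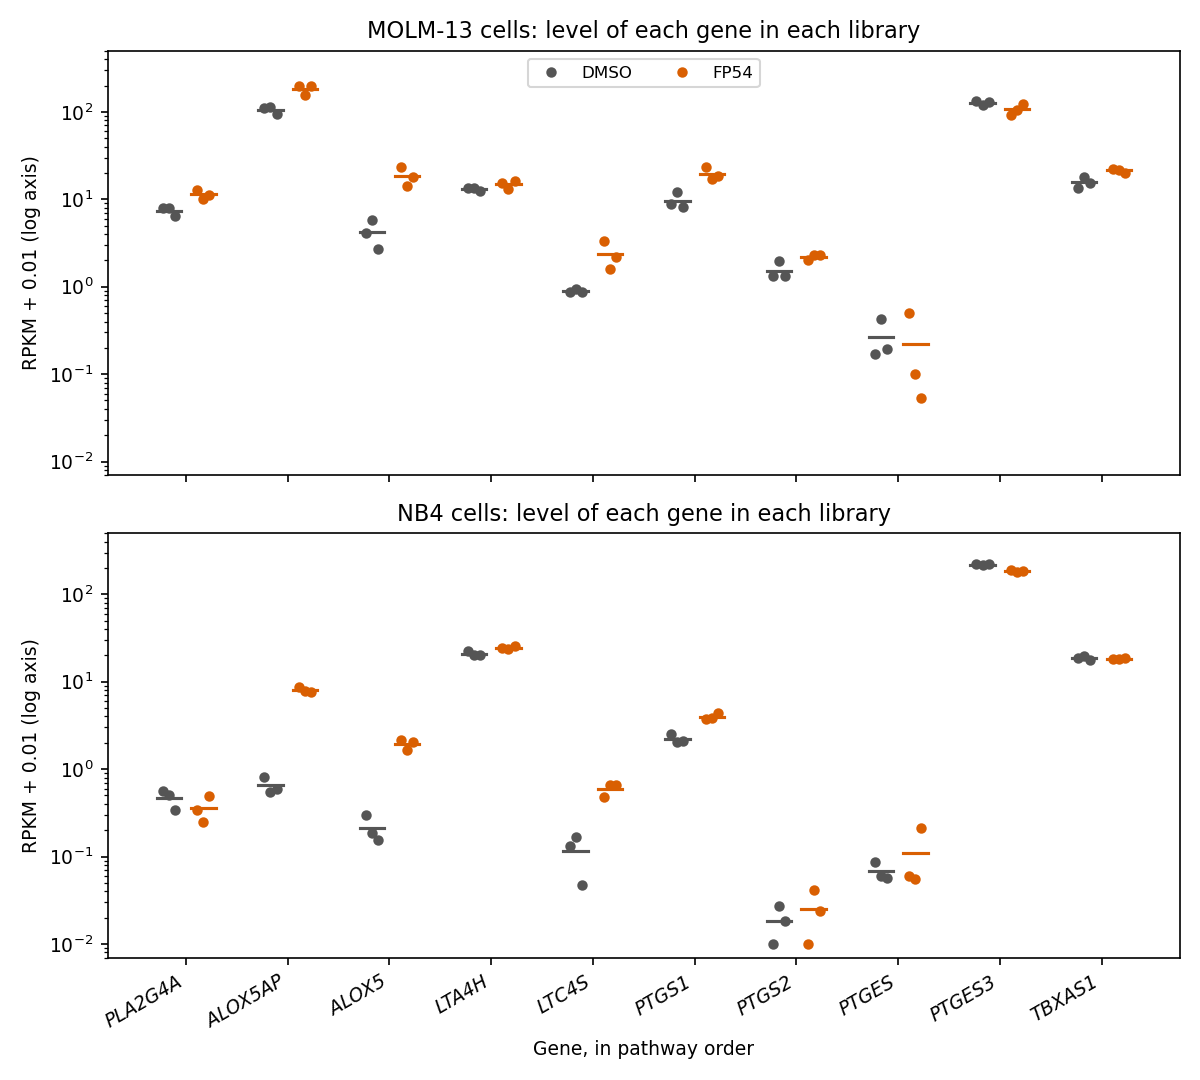
RPKM + 0.01 of each of the 10 genes in each library (points, log axis) and the mean of 3 libraries (lines), for MOLM-13 (top) and NB4 (bottom) cells. In NB4 cells, ALOX5AP moved from below 1 RPKM with DMSO to at least 7.60 RPKM with FP54, while PTGES3 stayed above 179 RPKM in every library.

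PLA2G4A, the phospholipase at the head of the pathway (chr1:186828949-186988981 in hg38, by GENCODE, as for all genes here), read 7.94, 7.91 and 6.39 RPKM with DMSO and 12.8, 10.2 and 11.3 RPKM with FP54 in MOLM-13 cells. The groups did not overlap, and the means differed 1.54-fold, a log2 fold change of 0.62 ± 0.16 (SE). In NB4 cells PLA2G4A was scarce, at 0.555, 0.489 and 0.326 RPKM with DMSO and 0.328, 0.239 and 0.478 RPKM with FP54. These groups overlapped, the gene fell below the expression minimum, and it rested on 84 reads against 36. The ratio of read shares, FP54 over DMSO, was 0.781, with an exact 95% interval from 0.513 to 1.17 that covers counting error only and includes no difference.

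ALOX5, the 5-lipoxygenase on which the list was chosen (chr10:45374176-45446119), read 4.09, 5.81 and 2.72 RPKM with DMSO and 23.2, 14.3 and 17.8 RPKM with FP54 in MOLM-13 cells. Every FP54 library stood at least 2.46-fold above the highest DMSO library, and the log2 fold change was 2.14 ± 0.26 (SE). In NB4 cells the gene began far lower, at 0.286, 0.176 and 0.144 RPKM with DMSO, and reached 2.13, 1.66 and 2.01 RPKM with FP54. The log2 fold change was 2.77 ± 0.20 (SE, limma adjusted p = 2.57e-06), and the means differed 9.57-fold. ALOX5 reached the expression minimum there only through its FP54 libraries, so it had to differ and this p value is no support. The rise rests on 12 to 22 reads per DMSO library and 72 to 98 per FP54 library. Under quantile normalization the log2 fold change was 1.85, and with a pseudocount of 1 in place of 0.1 it was 1.29, while the call held under both. With the mean olfactory receptor level of each library subtracted, it was 2.75.

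ALOX5AP, whose product FLAP is needed by 5-lipoxygenase in intact cells (chr13:30713478-30764426), was abundant in MOLM-13 cells and scarce in NB4 cells. MOLM-13 cells had 109, 113 and 95.1 RPKM with DMSO and 197, 158 and 198 RPKM with FP54, a log2 fold change of 0.79 ± 0.15 (SE) with no overlap. NB4 cells had 0.807, 0.531 and 0.586 RPKM with DMSO and 8.60, 7.77 and 7.60 RPKM with FP54. The NB4 rise was the largest of any member in either line, at 12.5-fold between means, and the lowest FP54 library stood 9.42-fold above the highest DMSO library. Its log2 fold change was 3.46 ± 0.15 (SE, limma adjusted p = 1.07e-07), at rank 22 of 9853 genes tested. ALOX5AP reached the expression minimum there only through its FP54 libraries, so it had to differ and this p value is no support. With a pseudocount of 1 the log2 fold change was 2.46. Even so, the FP54-treated NB4 level remained below every DMSO library of MOLM-13 cells, a comparison of separately normalized tables that was not tested.

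Of the enzymes that act on leukotriene A4, LTA4H differed little and LTC4S differed in both lines. LTA4H, the hydrolase that makes the chemoattractant leukotriene B4 (chr12:96000753-96043520), read 13.5, 13.5 and 12.5 RPKM with DMSO and 15.3, 13.1 and 16.2 RPKM with FP54 in MOLM-13 cells, and the groups overlapped (log2 fold change 0.17 ± 0.14, SE). In NB4 cells it read 22.3, 20.4 and 20.2 RPKM with DMSO and 24.1, 23.4 and 25.5 RPKM with FP54. There the groups were apart, but the log2 fold change of 0.21 ± 0.08 (SE, limma adjusted p = 0.0531) was not called, and under median-ratio scaling it came to 0.02. Exons of LTA4H overlap 2 long noncoding RNA genes on the other strand, and no strand setting of the authors' counting is stated.

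LTC4S, the synthase of the cysteinyl leukotriene C4 (chr5:179793980-179796647), read 0.862, 0.926 and 0.871 RPKM with DMSO and 3.32, 1.58 and 2.16 RPKM with FP54 in MOLM-13 cells. All FP54 values were higher, with a log2 fold change of 1.26 ± 0.26 (SE), and the low level meant 17 to 18 reads per DMSO library and 11 to 76 per FP54 library. Without FP54 replicate 1, the library with the highest value, the log2 fold change was 0.98, and with a pseudocount of 1 it was 0.80. In NB4 cells LTC4S read 0.122, 0.157 and 0.038 RPKM with DMSO and 0.475, 0.649 and 0.642 RPKM with FP54, below the expression minimum. These values come from 8 reads against 25, and the ratio of read shares was 5.69, with an exact 95% interval from 2.49 to 14.6 for counting error only. Fitted with no expression minimum, LTC4S had a log2 fold change of 1.78 ± 0.28 (SE, limma adjusted p = 0.00918). That fit called 4265 NB4 genes higher and 951 lower.

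PTGS1, the constitutive cyclooxygenase COX-1 (chr9:122370530-122395703), was higher in every FP54 library of both lines. MOLM-13 cells had 8.72, 12.03 and 8.13 RPKM with DMSO and 23.4, 16.9 and 18.2 RPKM with FP54, 2.03-fold between means (log2 fold change 1.02 ± 0.19, SE). NB4 cells had 2.52, 2.02 and 2.07 RPKM with DMSO and 3.72, 3.80 and 4.38 RPKM with FP54, 1.80-fold between means. The groups were apart in both lines, and in NB4 cells the rise passed the test at a log2 fold change of 0.82 ± 0.13 (SE, limma adjusted p = 0.000383). Among the 3 members called in NB4 cells, PTGS1 alone reached the expression minimum in DMSO libraries as well as in FP54 libraries.

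PTGS2, the inducible cyclooxygenase COX-2 (chr1:186671791-186680922), was low in MOLM-13 cells and close to undetected in NB4 cells. MOLM-13 cells had 1.31, 1.94 and 1.30 RPKM with DMSO and 2.00, 2.28 and 2.29 RPKM with FP54. The groups were separated only narrowly, the lowest FP54 library being 1.03-fold above the highest DMSO library, and the log2 fold change of 0.52 ± 0.21 (SE) was not called. In NB4 cells each library held 0 to 2 reads of PTGS2, 3 in all per treatment, so no fold change is given. PTGS2 exons overlap those of PACERR, a long noncoding RNA on the other strand.

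TBXAS1, the thromboxane A2 synthase (chr7:139777051-140020325), was apart between treatments in MOLM-13 cells alone, and the difference between the lines was not tested. MOLM-13 cells had 13.6, 18.1 and 15.3 RPKM with DMSO and 22.3, 21.6 and 20.1 RPKM with FP54, with no overlap and a log2 fold change of 0.45 ± 0.15 (SE) that stayed below the minimum for a call. NB4 cells had 18.8, 19.7 and 17.8 RPKM with DMSO and 18.0, 18.1 and 18.5 RPKM with FP54. There the groups overlapped, and the log2 fold change was -0.04 ± 0.08 (SE, limma adjusted p = 0.686).

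PTGES and PTGES3 gave no call in either line. PTGES, the membrane-bound enzyme (chr9:129738331-129753042), stayed under the expression minimum and read 0.160, 0.422 and 0.183 RPKM with DMSO and 0.496, 0.091 and 0.044 RPKM with FP54 in MOLM-13 cells, an overlap that rests on 24 and 20 reads. In NB4 cells it had 7 reads per treatment. PTGES3 (chr12:56663341-56688408) was among the most abundant members in every group, at 133, 120 and 129 RPKM with DMSO and 93.0, 105 and 122 RPKM with FP54 in MOLM-13 cells, where the groups overlapped. In NB4 cells PTGES3 read 219, 215 and 221 RPKM with DMSO and 187, 180 and 183 RPKM with FP54. All NB4 FP54 values were lower, and the log2 fold change was -0.25 ± 0.07 (SE, limma adjusted p = 0.0144), under the fold required for a call. It was -0.45 under median-ratio scaling and -0.06 under quantile normalization. PTGES3 has 5 named pseudogenes, with which reads could be shared.

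**Figure D2:**
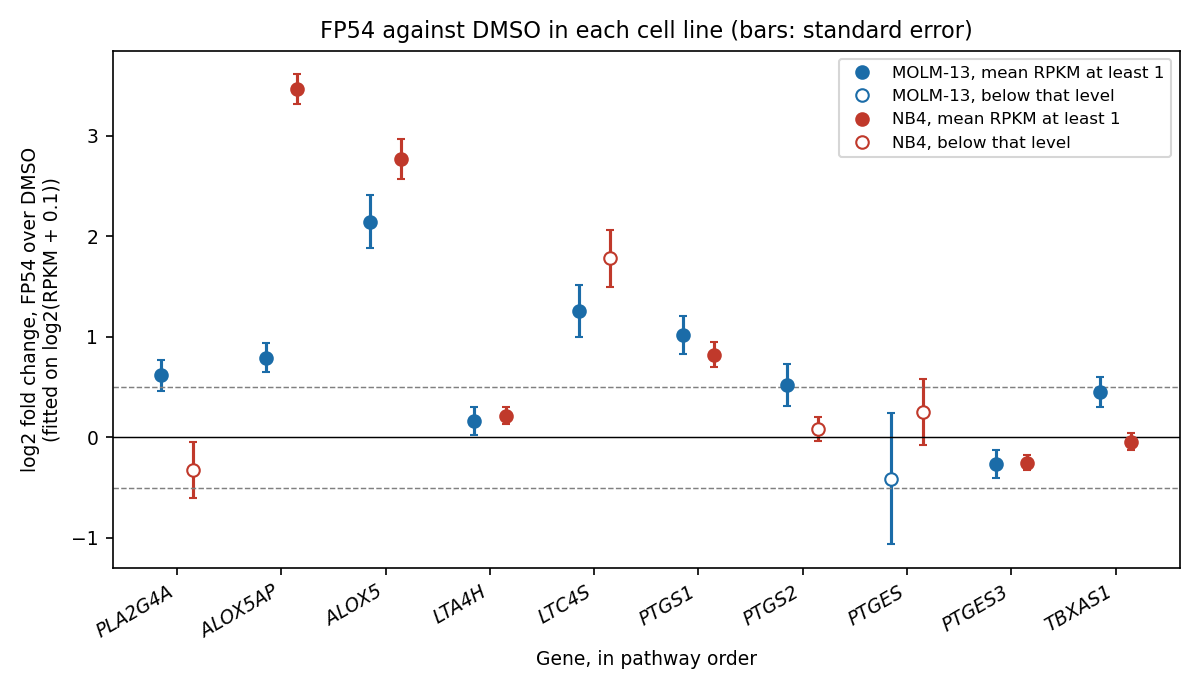
log2 fold change (FP54 over DMSO, on log2(RPKM + 0.1)) of each gene in MOLM-13 (blue) and NB4 (red) cells, with the standard error as bars. Filled points passed the expression minimum, open points come from the fit without it, and dashed lines mark the fold change required for a call. ALOX5AP and ALOX5 stand highest in NB4 cells, at 3.46 and 2.77.

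In NB4 cells, then, 3 of the 6 members tested were called higher and 0 lower, beside 18.6% and 10.7% of all genes tested. At an unadjusted p under 0.05, limma and limma-voom on the recovered reads each found 1 member lower, PTGES3. ALOX5 and ALOX5AP reached the expression minimum only through their FP54 libraries, so both had to differ, and their count is no support. Fitted without that minimum, their limma adjusted p values were 0.00146 and 0.000574. The fit without it leaned upward, with 4265 genes called higher, 951 called lower and a median log2 fold change of 0.156. Of the 6 members tested with the minimum, 4 had every FP54 value above every DMSO value and 1, PTGES3, had every value below. Those patterns were shown by 34.3% and 26.2% of all genes tested. Over both lines, the members higher in every FP54 library were ALOX5, ALOX5AP, LTC4S and PTGS1. The share of all genes with that pattern in both lines was not counted, so nothing is read from their number. ALOX5 led to the list, and LTC4S was below the expression minimum in NB4 cells.

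Scaling matters to the NB4 directions. The median log2 fold change over all genes was 0.07 with RPKM as deposited, -0.13 under median-ratio scaling and -0.03 under quantile normalization. Calls over all NB4 genes moved with it, from 1834 higher and 1050 lower to 1168 and 2010 under median-ratio scaling and to 1280 and 1363 under quantile normalization. ALOX5, ALOX5AP and PTGS1 were called higher under all of these, with log2 fold changes of 2.61, 3.28 and 0.63 under median-ratio scaling. TBXAS1 changed sign under quantile normalization, to 0.002.

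The order of the members by RPKM was not the same in the 2 lines. With DMSO in MOLM-13 cells the order was PTGES3, ALOX5AP, TBXAS1, LTA4H, PTGS1, PLA2G4A, ALOX5, PTGS2, LTC4S and PTGES, and no pair of neighbours overlapped in their 3 libraries. With FP54, ALOX5AP stood first at 184 ± 22.9 RPKM (SD, n = 3) and PTGES3 second at 107 ± 14.6 RPKM (SD, n = 3). ALOX5 moved up to place 5, where TBXAS1, PTGS1, ALOX5 and LTA4H followed each other with overlapping ranges. In NB4 cells PTGES3, LTA4H and TBXAS1 led with either treatment, and ALOX5AP passed PTGS1 with FP54, at 7.99 ± 0.53 against 3.97 ± 0.36 RPKM (SD, n = 3).

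The genes most like ALOX5 were found by Pearson correlation over the 12 libraries, each gene centred on its mean log2(RPKM + 0.1) within a line. Among 8849 genes expressed in both lines, PAN2 (0.996), TXNIP (0.995), PLXNC1 (0.991), ADAMTS10 (0.990) and ERMAP (0.989) came first. TXNIP, the thioredoxin-interacting protein, averaged 161 ± 29.6 RPKM with DMSO and 378 ± 57.4 RPKM with FP54 in MOLM-13 cells, and 51.3 ± 6.74 and 141 ± 6.47 RPKM in NB4 cells (SD, n = 3). PLXNC1, a semaphorin receptor, averaged 0.815 ± 0.206 and 2.33 ± 0.481 RPKM in MOLM-13 cells and 0.671 ± 0.022 and 2.79 ± 0.198 RPKM in NB4 cells (SD, n = 3). PLXNC1 reached the expression minimum in both lines only through its FP54 libraries, so it had to differ. Of the members, PTGS1 had 0.957, ALOX5AP 0.897, LTA4H 0.846, TBXAS1 0.504 and PTGES3 -0.844. The 12 points share treatment and libraries, so any gene that moved with FP54 scores high, and PTGS1 stood at rank 117.

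Further genes were taken as 6 lists, of which the last, HSP90 and its co-chaperones, is tied to the pathway only by PTGES3. The lists were chosen with earlier results of these data known, so their counts and p-values are no independent support. Upstream of ALOX5, 22 genes of phospholipases and acyl remodelling were considered, of which 3 rose and 4 fell among 15 tested in MOLM-13 cells, and 4 rose and 1 fell among 13 tested in NB4 cells. Over all genes tested, 9.30% rose and 9.04% fell in MOLM-13 cells, and 18.6% and 10.7% in NB4 cells, shares that stand beside the counts of every list here. Without DMSO replicate 1, DMSO replicate 3, FP54 replicate 1 or FP54 replicate 3, 1 gene of this list rose in MOLM-13 cells. PLA2G6, a calcium-independent phospholipase A2, rose with the largest log2 fold change of the list in MOLM-13 cells, 1.00 ± 0.22 (SE, limma adjusted p = 0.0138), and in NB4 cells it averaged 0.647 ± 0.103 RPKM with DMSO and 1.38 ± 0.167 RPKM with FP54 (SD, n = 3). It reached the expression minimum there only through its FP54 libraries, so it had to differ. ACSL1, which activates fatty acids with coenzyme A, rose most in NB4 cells, with a log2 fold change of 1.09 ± 0.11 (SE, limma adjusted p = 2.55e-05). FADS1, a desaturase that makes arachidonic acid, had a log2 fold change of -1.39 ± 0.19 (SE, limma adjusted p = 0.00263) in MOLM-13 cells, where FADS2, ACSL3 and ACSL4 also fell. FADS2, a desaturase that acts earlier in the same synthesis, was the one gene of the list called lower in NB4 cells, at -1.16 ± 0.08 (SE, limma adjusted p = 2.82e-06). The median of the list was 0.11 in MOLM-13 and 0.17 in NB4 cells, beside 0.00 and 0.07 over all genes, and under median-ratio scaling it turned to -0.06 in NB4 cells, with 2 genes rising and 1 falling.

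Among 19 genes of other lipoxygenases and leukotriene processing, 2 of 9 tested rose in MOLM-13 cells and 3 of 7 in NB4 cells, and 0 fell in either. In MOLM-13 cells 1 rose without DMSO replicate 1, 2 or 3 or without FP54 replicate 1, and in NB4 cells 2 rose under median-ratio scaling. DPEP2, a dipeptidase that converts leukotriene D4 to leukotriene E4, rose in MOLM-13 cells from 6.81 ± 0.78 to 16.0 ± 2.71 RPKM (SD, n = 3, log2 fold change 1.21, limma adjusted p = 0.00267). In NB4 cells it averaged 0.504 ± 0.140 RPKM with DMSO and 1.66 ± 0.205 RPKM with FP54 (SD, n = 3), and since it reached the expression minimum only through its FP54 libraries, it had to differ. GGT5, which acts one step earlier on leukotriene C4, rose in MOLM-13 cells by 0.61 (limma adjusted p = 0.0325). COTL1, an actin-binding protein that binds 5-lipoxygenase, rose in NB4 cells by 0.70 (limma adjusted p = 0.00014), as did ABCC1, an exporter of leukotriene C4, by 0.69 (limma adjusted p = 0.000381). In MOLM-13 cells COTL1 had a log2 fold change of 0.48 and was not called. The medians were 0.26 and 0.34, and the NB4 median was 0.15 under median-ratio scaling and 0.08 under quantile normalization.

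Of the 8 other prostanoid synthases, 2 rose and 2 fell among 4 tested in MOLM-13 cells, and 1 rose and 1 fell among 3 tested in NB4 cells. In MOLM-13 cells 1 rose and 1 fell without DMSO replicate 1 or 3, and 2 rose and 1 fell without FP54 replicate 1 or 3. With no expression minimum 2 rose and 0 fell there, so the falls of AKR1B1 and PTGES2 in MOLM-13 cells were not called. PTGDS, a prostaglandin D2 synthase, averaged 0.986 ± 0.145 RPKM with DMSO and 3.59 ± 0.760 RPKM with FP54 in MOLM-13 cells (SD, n = 3), and it too reached the expression minimum only through its FP54 libraries. AKR1B1, an aldo-keto reductase, fell there from 4.54 ± 1.29 to 2.09 ± 0.40 RPKM (SD, n = 3, limma adjusted p = 0.0167). PTGES2, a further prostaglandin E synthase, fell in MOLM-13 cells by 1.02 and in NB4 cells by 0.66 on the log2 scale (limma adjusted p = 0.0322 and 0.000977). GSTM2 rose in NB4 cells by 1.17 (limma adjusted p = 0.000333). The medians were -0.16 and -0.13.

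Export, breakdown and reception of these lipids gave few calls. Of 11 genes of export, uptake and breakdown in the tables, PTGR3, a prostaglandin reductase, rose in MOLM-13 cells by 0.82 (limma adjusted p = 0.0133) as 1 of 6 tested, and 0 of 5 tested were called in NB4 cells by limma, where CBR1 (lower) and CBR3 (higher) had an unadjusted p under 0.05. Of 17 receptor genes, 0 of 4 tested were called in MOLM-13 cells, where PTGIR alone had an unadjusted p under 0.05. PTGER4, a prostaglandin E2 receptor, rose in NB4 cells by 0.53 (limma adjusted p = 0.00792) as 1 of 2 tested, a call lost under median-ratio scaling, under quantile normalization, with a pseudocount of 1 and without DMSO replicate 2, DMSO replicate 3 or FP54 replicate 3. List medians were 0.20 and 0.09 for breakdown and -0.25 and 0.28 for receptors, in MOLM-13 and NB4 cells, and the NB4 median for breakdown turned to -0.11 and -0.09 under the 2 scalings.

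Among HSP90 and its co-chaperones, the group PTGES3 belongs to by its other role, the calls were all lower. Of 12 genes, all tested, 7 fell and 0 rose in MOLM-13 cells, and 8 fell and 0 rose in NB4 cells, where 9 fell under median-ratio scaling and 7 under quantile normalization. In MOLM-13 cells 4 fell without DMSO replicate 3 or FP54 replicate 1, 3 fell with no expression minimum and 9 fell without FP54 replicate 2. No gene of the list was higher at an unadjusted p under 0.05 in either line. AHSA1, which stimulates the HSP90 ATPase, fell most in MOLM-13 cells, at a log2 fold change of -1.11 ± 0.22 (SE, limma adjusted p = 0.00969). HSP90AA1, the inducible HSP90, fell most in NB4 cells, from 720.5 ± 34.7 to 336 ± 14.1 RPKM (SD, n = 3, log2 fold change -1.10, limma adjusted p = 3.30e-06). The medians were -0.64 and -0.57, beside -0.26 and -0.25 for PTGES3 itself.

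**Figure D3:**
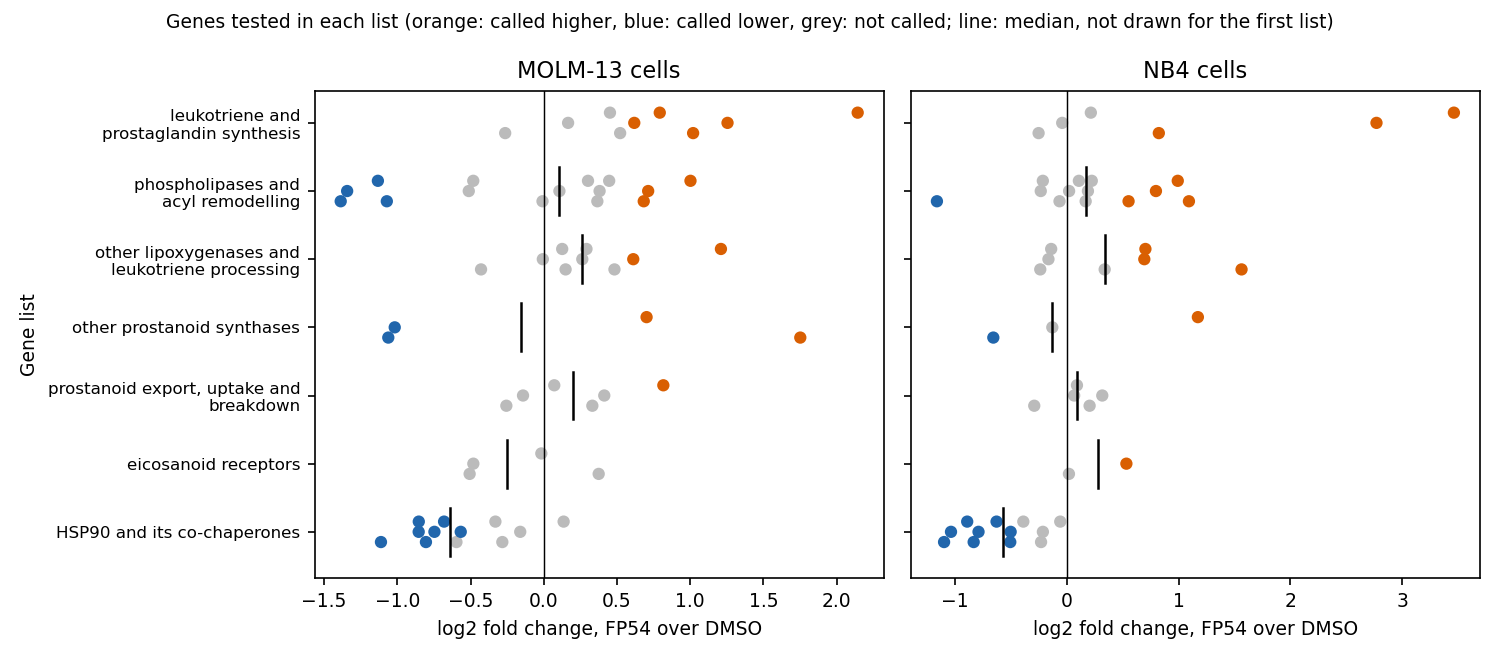
log2 fold change (FP54 over DMSO) of every tested gene in the 10-gene list and 6 related lists, in MOLM-13 (left) and NB4 (right) cells, with genes called higher in orange, called lower in blue and not called in grey. Short vertical lines mark the medians of the 6 related lists, with none drawn for the 10-gene list, and the long line marks no change. The HSP90 list holds 7 and 8 called genes, all lower.

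Markers of several blood cell types differed between treatments, in part in opposite directions within a list. The summed level of 7 monocyte or macrophage markers ranged from 202 to 220.0 RPKM with DMSO and from 382 to 531 RPKM after FP54 in MOLM-13 cells. In NB4 cells it ranged from 14.3 to 17.4 RPKM and from 28.2 to 34.4 RPKM. CD68, a macrosialin of monocytes that made up most of the sum in both lines, rose in both (limma adjusted p = 0.00257 and 7.17e-05). CSF1R rose in MOLM-13 cells and was not called in NB4 cells, and CD163 and FCGR3A stayed below 0.1 RPKM in every library. Of the 6 myeloid leukemia markers, PTPRC rose and MPO fell in both lines, and CD38 fell in NB4 cells. The sum of the 6 ranged from 2179 to 2427 RPKM with DMSO and from 1205 to 1274 RPKM with FP54 in NB4 cells. Most of it was MPO, which averaged 2170 and 1116 RPKM. In MOLM-13 cells the sum overlapped between treatments, from 327 to 340 RPKM with DMSO and from 334 to 360.5 RPKM with FP54. Of 6 platelet markers the sum ranged from 1.59 to 2.47 RPKM with DMSO and from 14.0 to 15.3 RPKM with FP54 in NB4 cells, nearly all of it ITGA2B, with PF4, PPBP, GP9 and GP1BB at 0. The neutrophil granule list went from 123 to 156 RPKM with DMSO down to 52.7 to 54.3 RPKM with FP54 in NB4 cells, and in MOLM-13 cells its ranges overlapped. Within it PRTN3 and AZU1 fell in NB4 cells and CTSG fell in both lines, while ITGAM and CSF3R rose in both lines. In MOLM-13 cells CTSG went from 116 ± 22.2 to 62.1 ± 5.67 RPKM (SD, n = 3). Eosinophil, basophil and mast cell markers summed to between 33.3 and 37.1 RPKM with DMSO and between 83.3 and 85.8 RPKM with FP54 in NB4 cells. The NB4 sum was led by HDC, which rose from 23.6 ± 2.36 to 73.7 ± 1.26 RPKM (SD, n = 3), while EPX and PRG2 fell. T, B and NK cell markers summed to between 38.3 and 63.3 RPKM and between 87.6 and 94.5 RPKM there, while both sums overlapped between treatments in MOLM-13 cells. Erythroid markers summed to 0.235 RPKM or less in every library. The part of these markers in the members' values was not tested.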

How the data were processed

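The RNA-seq values were deposited as RPKM per gene, in 1 table for each cell line. Poly(A) RNA, selected in 2 rounds, went into stranded total RNA libraries. The authors trimmed reads with Cutadapt 4.8, cleared duplicates with Clumpify, aligned to hg38 with STAR 2.7.11b and counted protein-coding GENCODE genes using featureCounts 2.0.3. The authors converted the counts to RPKM, and the lengths and totals used are not given in the sources used here. Groups came from the labels' cell line and treatment, and replicate numbers from the column names.

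RPKM were multiplied by exon lengths of a later GENCODE release to recover reads. From 98.7% to 99.3% of low values came within 0.05 of a whole number. Depths are those of the recovered reads, and limits on genes with few reads cover counting error only. TBXAS1 reads were not whole, so none are printed.

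Genes that averaged 1 RPKM or more in the 6 libraries of a line were fitted with limma 3.58.1 in R 4.3.3, using log2(RPKM + 0.1) and a trended prior, with Benjamini-Hochberg adjustment over all genes tested. Fold changes on this scale understate the change of low genes. The fit was tested on simulated data. Named were all members, the called genes with the largest rise and fall of each list and every called gene of lists with at most 3, and the 5 genes most like ALOX5. Members and lists were chosen with earlier results of these data known. Alternatives were the pseudocount, the expression minimum, scaling, a replicate block, limma-voom on the recovered reads, an adjusted p cutoff and leaving out each library.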

Additional observations from a re-analysis of the deposited data

How the results depend on the processing

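In MOLM-13 cells 5 members were called higher under every alternative that kept all libraries except an expression minimum of 5 RPKM, which left 4. Counts of MOLM-13 members are a description here too, since ALOX5 in this contrast led to the list. With a library left out, the count ranged from 4 to 7: 7 without DMSO replicate 2, which added PTGS2 and TBXAS1, and 4 without DMSO replicate 3 or FP54 replicate 1, where PLA2G4A was no longer called. In NB4 cells 3 members were called higher throughout, except 4 with no expression minimum, which adds LTC4S, and 0 with a minimum of 5 RPKM, at which none of the 3 genes is tested. With a library left out, the NB4 count was 3 each time. No member was called lower in either line under any alternative run. TBXAS1 in NB4 cells changed sign under quantile normalization, to 0.00222. Without an expression minimum, called genes over all NB4 genes came to 4265 higher and 951 lower. The alternatives were applied to the 6 related lists after seeing the data. Over these lists 8 genes rose and 13 fell among 50 tested in MOLM-13 cells. In NB4 cells 9 rose and 10 fell among 42 tested. Over all genes tested, 9.30% rose and 9.04% fell in MOLM-13 cells, and 18.6% and 10.7% in NB4 cells. Of the falls, 7 and 8 came from the HSP90 list. PTGDS in MOLM-13 cells, and PLA2G6 and DPEP2 in NB4 cells, reached the expression minimum only through their FP54 libraries. The number that rose was 2 and 4 with a minimum of 5 RPKM, 23 in NB4 cells with no minimum and 5 in NB4 cells under median-ratio scaling. With a library left out it ranged from 4 to 9 in MOLM-13 cells, 4 without DMSO replicate 1 or 3 and 5 without FP54 replicate 1, and from 8 to 9 in NB4 cells, while the number that fell ranged from 9 to 16 and from 8 to 10. The causes were not tested.

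Correlations of same-numbered libraries across treatments ranged from -0.262 to -0.0577 in MOLM-13 and from -0.143 to 0.123 in NB4 cells, so no pairing by number was seen. Differently numbered MOLM-13 libraries ranged more widely, from -0.461 (DMSO 3 with FP54 1) to 0.593 (DMSO 1 with FP54 3). Such values cannot show how the samples were set up. With the replicate number as a block, 5 members in MOLM-13 and 3 in NB4 cells were called higher. Subtracting the olfactory receptor level, an alternative chosen after seeing the data, also left 5 and 3. Depth limits LTC4S, PTGES, PTGS2 and PLA2G4A in NB4 cells, and PTGES in MOLM-13 cells, to at most 33 reads per library.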
